A study of Mus musculus with 6 samples.

Results

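Transcripts of 9 genes that mark red cells and platelets were followed through 6 adult mouse hearts, 3 of them labelled as general or heart-specific knockouts of Kdm4a. The red cell transcripts were Slc4a1, Alas2, Hba-a1, Hbb-bs, Hbb-bt and Hbb-b2, and the platelet transcripts were Ppbp, Pf4 and Tubb1. They were chosen by gene symbol, with every probe of each symbol taken, which gave 20 of 45281 probes and 9 of 19057 genes with a probe of their own. All 9 genes passed the filter on dim probes, and 19 of their 20 probes did, so the counts below cover every gene. Where a gene had several probes, the brightest on average over the arrays stands for it and the others are given as well. The question was whether these transcripts differed together between hearts, as a difference in blood content would make them do.

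The study compared knockout and wild-type hearts on single-colour Illumina bead arrays. The deleted gene, Kdm4a (Jmjd2a), encodes a histone demethylase. The general line gave 1 wild-type and 1 knockout array, with no sex stated. The heart-specific line gave a female pair and a male pair, each 1 wild-type and 1 knockout array, and the titles name the control of each knockout. All mice are labelled adult, and strain, exact age and the driver of the heart-specific deletion are not in the labels, nor is how the heart was dissected or bled. No label says that the arrays came from separate animals, and p-values therefore cover just the scatter among these arrays, which could be technical. Values are normalized intensities on a linear scale from 82.48 to 50962.29, differences are log2 knockout minus wild type, and the background level of an array, 121 to 124, is the 95th percentile of 1526 probes for olfactory, trace amine and vomeronasal receptors. The 1 or 2 pairs to a line limit precision throughout.

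The knockout itself could not be read from its own transcript. One of its 3 probes, above background on 1 array, read 102 to 123, and the other two were not above background on any array. On each array 40.4% to 43.4% of probes were above background, and 11285 genes were tested. The heart label could be checked: all 10 measured cardiomyocyte markers were kept, with a summed intensity of 278845 to 313879. The sum does not show the range of each marker, and Tnni3 ran from 1893 in the female wild type to 6195 in the general wild type.

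Circulating red cells carry haemoglobin, a tetramer of alpha and beta globin chains with haem, and mouse red cells lose their nucleus but the youngest of them, the reticulocytes, still hold messenger RNA. Reticulocytes are rich in globin transcripts and in those of Alas2, the red cell enzyme that opens haem synthesis, and of Slc4a1, the band 3 anion exchanger of the red cell membrane. Platelets are fragments of megakaryocytes, and they keep transcripts of the alpha-granule chemokines Ppbp and Pf4 and of Tubb1, the beta tubulin of their marginal band. Pf4 is also made by some tissue macrophages. In bulk tissue, fewer cells of a type and less RNA per cell cannot be told apart.

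The genes lie on several chromosomes, Tubb1 on chromosome 2, Ppbp and Pf4 as neighbours on 5, the beta globins on 7, Hba-a1 and Slc4a1 on 11 and Alas2 on X. The RefSeq table of promoters (GRCm38.p6) held 7 of the 9, and the 250 bases before the start site were searched on both strands for the binding letters of the erythroid and megakaryocyte GATA factors, taken as GATAA or GATAG with A or T before it, and for CACCC, the core bound by Klf1 and related factors. No match of one motif overlapped a match of the other. The 4 promoters below are shown because their genes gave the contrasting patterns that follow, with motifs on either strand in capitals and each sequence written along its gene's strand.
Alas2: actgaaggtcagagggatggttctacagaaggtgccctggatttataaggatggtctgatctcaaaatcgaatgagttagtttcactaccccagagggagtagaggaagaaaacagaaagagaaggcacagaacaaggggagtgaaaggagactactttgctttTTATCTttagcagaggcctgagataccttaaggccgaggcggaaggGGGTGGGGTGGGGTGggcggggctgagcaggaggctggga
Hbb-bs: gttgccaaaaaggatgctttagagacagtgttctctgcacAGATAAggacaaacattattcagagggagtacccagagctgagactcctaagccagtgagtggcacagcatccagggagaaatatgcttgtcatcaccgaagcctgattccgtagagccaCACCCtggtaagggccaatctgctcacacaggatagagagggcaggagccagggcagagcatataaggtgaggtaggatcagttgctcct
Hbb-bt: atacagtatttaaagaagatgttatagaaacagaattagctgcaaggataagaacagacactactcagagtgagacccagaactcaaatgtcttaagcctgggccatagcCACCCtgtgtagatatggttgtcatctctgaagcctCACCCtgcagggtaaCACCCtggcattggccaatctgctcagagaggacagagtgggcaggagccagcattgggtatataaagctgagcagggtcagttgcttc
Ppbp: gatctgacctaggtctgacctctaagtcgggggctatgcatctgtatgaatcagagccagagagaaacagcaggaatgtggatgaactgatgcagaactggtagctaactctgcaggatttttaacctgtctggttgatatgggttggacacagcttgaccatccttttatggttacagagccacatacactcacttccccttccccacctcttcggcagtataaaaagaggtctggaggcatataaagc
The Alas2 sequence is chrX:150547167-150547416 on the plus strand and holds 1 GATA motif, 86 bases before the start, and 3 CACCC. The Hbb-bs sequence is chr7:103827929-103828178 on the minus strand, with 1 GATA motif and 1 CACCC, 90 bases before the start. The Hbb-bt sequence is chr7:103813924-103814173 on the minus strand, with 0 GATA motifs and 3 CACCC, and the Ppbp sequence is chr5:90768268-90768517 on the plus strand, with 0 of either. Hba-a1 held 1 GATA motif and 2 CACCC, Tubb1 0 and 4, and Pf4 0 and 0, so 3 of 7 had a GATA motif and 5 of 7 a CACCC. Over 32851 promoters of the same length, 26.5% held the GATA motif and 52% held CACCC. These matches describe letters in a window and say nothing of binding in these hearts.

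Slc4a1 and Alas2, the red cell genes with mid-range signals, were brightest in the general wild-type heart. The Slc4a1 intensity was 1296 in the general wild type, 243 in its knockout, 114 in the female wild type, 178 in the female knockout, 209 in the male wild type and 328 in the male knockout. The female wild type was below background, and the general wild type stood 1.98 above the next heart on the log2 scale. The log2 difference was -2.41 in the general pair, 0.65 in the female pair and 0.65 in the male pair, which are a 5.33-fold lower signal in the general knockout, a signal at least 1.44-fold higher in the female knockout and a 1.57-fold higher one in the male knockout.

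Alas2 ran the same way. Its intensity was 2390 in the general wild type, 648 in the general knockout, 321 in the female wild type, 528 in the female knockout, 721 in the male wild type and 1569 in the male knockout. The general wild type was again highest and the female wild type lowest, and the knockout and wild-type arrays overlapped for both genes. The Alas2 differences were -1.88, 0.72 and 1.12 in the general, female and male pairs. Both genes were also higher in the male than in the female heart of either genotype of the heart-specific line, by 0.88 and 0.88 for Slc4a1 and by 1.17 and 1.57 for Alas2 on the log2 scale in wild type and knockout.

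**Figure D1:**
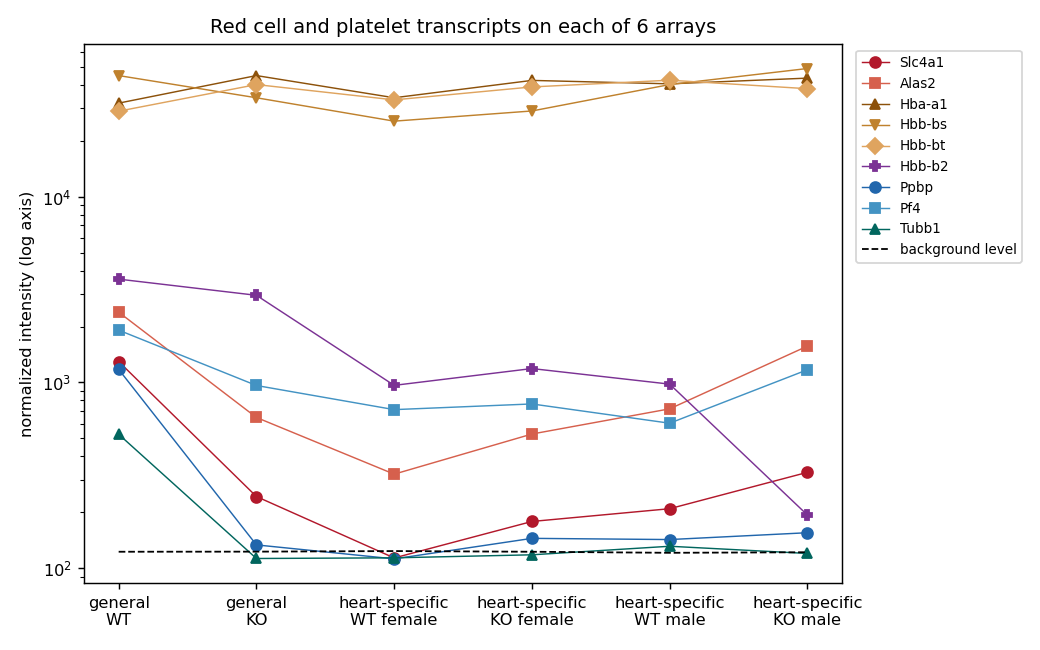
Normalized intensity (log axis) of the brightest probe of each of the 9 genes on each of the 6 arrays, with the background level dashed; lines only join points of a gene. Slc4a1, Alas2, Ppbp and Tubb1 are highest in the general wild type, while the brightest probes of Hba-a1, Hbb-bs and Hbb-bt stay between 25518 and 49016.

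The brightest probes of Hba-a1, Hbb-bs and Hbb-bt differed less between hearts, and those of Hba-a1 and Hbb-bt were lowest in the general wild type. The single Hba-a1 probe, for an alpha globin chain, was at 31905 in the general wild type, 44903 in the general knockout, 34104 in the female wild type, 42292 in the female knockout, 40528 in the male wild type and 43509 in the male knockout. It was lowest in the general wild type, the heart in which Slc4a1 and Alas2 were highest, and it was the only gene of the 9 with 1 sign in all 3 pairs (0.49, 0.31 and 0.10), which 21.8% of all genes had. All 3 knockouts lay above all 3 wild types, as for 3.14% of all genes. The limma test over 3 pairs gave 0.30 ± 0.20 (SD, n = 3 pairs) with an adjusted p of 0.9998.

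Hbb-bs and Hbb-bt encode the adult beta chains of the haplotype carried by strains such as C57BL/6, and their transcripts are nearly identical, so their probes may share signal. The brightest Hbb-bs probe was at 44903 in the general wild type, 34104 in the general knockout, 25518 in the female wild type, 28953 in the female knockout, 40165 in the male wild type and 49016 in the male knockout. Its order over hearts was that of Alas2 with the top places swapped, the male knockout above the general wild type, and its differences were -0.40, 0.18 and 0.29. The brightest Hbb-bt probe was at 28872, 40165, 33218, 39006, 42400 and 38156 in the same order of arrays, lowest in the general wild type, with differences of 0.48, 0.23 and -0.15.

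Most dimmer probes of the same 2 beta globin genes ranged more widely over hearts than the brightest, the dimmest of each gene most. The exceptions were Hbb-bs probes 2 and 4 by brightness, which spanned 1.53-fold and 1.63-fold, against 1.92-fold for the brightest. Both were higher in the general knockout, by 0.21 and 0.14. The dimmest Hbb-bt probe was at 8933 in the general wild type, 918 in the general knockout, 230 in the female wild type, 335 in the female knockout, 1751 in the male wild type and 4121 in the male knockout, a 38.9-fold range. The 6 hearts were in the same order as for Alas2. The dimmest Hbb-bs probe was at 36633, 9023, 4040, 7016, 29738 and 43741 in the same order of arrays, a 10.8-fold range. Its differences of -2.02, 0.80 and 0.56 have the signs of Slc4a1 and Alas2, while the brightest probe of Hbb-bt has the opposite sign in the general and the male pair to the -3.28 and 1.23 of its dimmest.

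Over all 10 probes of Hbb-bs and Hbb-bt, the range over the 6 hearts was 1.47-fold to 38.9-fold. In the general pair 7 of the 10 were lower in the knockout and 3 higher, from -3.28 to 0.48. In the female pair 10 of 10 were higher (0.07 to 0.80), and in the male pair 9 of 10 (-0.15 to 1.23), the exception being the brightest Hbb-bt probe. The highest value on each array is 50962, and the response of probes near that ceiling was not tested.

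**Figure D2:**
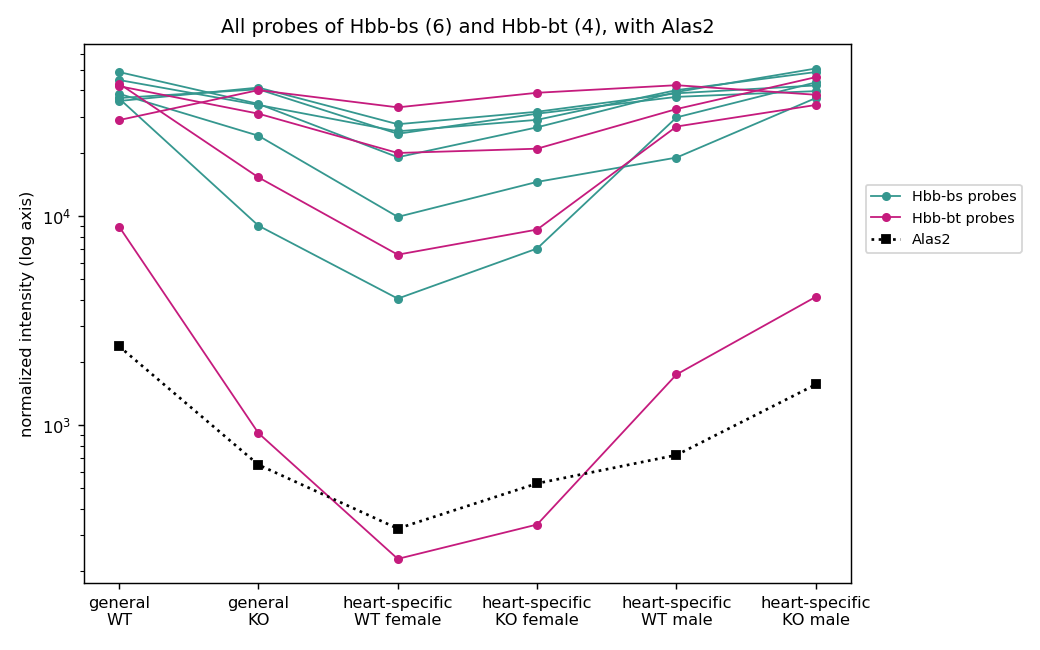
Normalized intensity (log axis) of all 6 Hbb-bs and 4 Hbb-bt probes on each array, with Alas2 dotted; lines only join points of a probe. The brightest probes span 1.92-fold for Hbb-bs and 1.47-fold for Hbb-bt, while the dimmest Hbb-bt probe runs from 230 in the female wild type to 8933 in the general wild type and keeps the order of Alas2.

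Hbb-b2, the minor adult beta chain of the haplotype carried by strains such as BALB/c, had a pattern of its own. Its 1 probe was at 3600 in the general wild type, 2946 in the general knockout, 965 in the female wild type, 1188 in the female knockout, 979 in the male wild type and 193 in the male knockout. Both general hearts were higher than all 4 heart-specific ones, and the male knockout, where the brightest Hbb-bs probe was highest and Alas2 second highest, was lowest. The differences were -0.29, 0.30 and -2.34, a 5.07-fold lower signal in the male knockout. The labels name no strain, and which globin haplotype each heart carried was not tested.

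Among the platelet genes, Ppbp, also known as Cxcl7, gave nearly all of its signal in 1 heart. Its intensity was 1176 in the general wild type, 133 in the general knockout, 112 in the female wild type, 145 in the female knockout, 143 in the male wild type and 155 in the male knockout. Its second probe was at 1226, 129, 101, 141, 137 and 169 in the same order of arrays. On both probes 5 hearts lay near the background level and the general wild type stood 2.92 above the next heart on the log2 scale of the brighter one. The differences were -3.14, 0.37 and 0.12, that is 8.81-fold lower in the general knockout and at least 1.17-fold higher in the female knockout.

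Tubb1 also stood out in the general wild type. Its brightest probe was at 526 there, 113 in the general knockout, 114 in the female wild type, 118 in the female knockout, 131 in the male wild type and 120 in the male knockout. It was above background in the general wild type and the male wild type alone, so its difference of -2.22 in the general pair is a signal at least 4.29-fold lower in the knockout. The 2 other Tubb1 probes disagreed with it: the second was at 106 to 137 on all 6 arrays and the last was below background throughout.

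Pf4, a platelet chemokine whose gene neighbours Ppbp, was above background in every heart. Its intensity was 1913 in the general wild type, 963 in the general knockout, 714 in the female wild type, 766 in the female knockout, 603 in the male wild type and 1171 in the male knockout. The general wild type was highest, as for Ppbp, but the other hearts spread widely and the male knockout came second. The Pf4 differences were -0.99, 0.10 and 0.96.

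Over all members, 7 of the 9 genes were lower in the general knockout and 2 higher, against 46.5% of all tested genes lower. In the female pair 9 of 9 measured values were higher in the knockout (48.8% of all genes), but Tubb1 was below background on both female arrays, which leaves 8 with a readable direction. Higher in the male knockout were 6 of 9 (49.8%). These counts hold for the main setting, and small differences changed sign when arrays were centred on cardiomyocyte markers. Pf4 then stood at -0.02 and Tubb1 at -0.068 in the female pair. In the male pair Hbb-bt stood at 0.082 and Tubb1 at 0.11. A log2 difference of -1 or lower in the general pair was found in 4 of the 9, Slc4a1, Alas2, Ppbp and Tubb1, against 0.434% of all genes. With the mean of a gene's kept probes it was 5 of the 9, as Hbb-bt then stood at -1.18. Lower in the general knockout and higher in both heart-specific ones were 5 of the 9, Slc4a1, Alas2, Hbb-bs, Ppbp and Pf4, against 13.1%, and 6 of 9 were highest in the general wild type, against 18.7%. The median difference was -0.99, 0.30 and 0.12 in the general, female and male pairs, and 0.017, -0.005 and -0.001 over all genes. In the heart-specific line, both knockouts lay above both wild types for Hba-a1, Ppbp and Pf4 (3 of 9, against 13.9%). Higher in both heart-specific knockouts than in their own wild types were 6 of 9, against 24.5%. The male heart exceeded the female one in both genotypes for 6 of 9 genes, against 27.6%. Tubb1 is counted there by 0.024 between the knockouts, but both of these were below background, which leaves its direction unread. The general wild type exceeded each of the other 5 hearts by 1 or more on the log2 scale for 3 of 9, Slc4a1, Ppbp and Tubb1, against 0.248%. These genes were chosen as markers of shared sources and are not independent of each other. They were also chosen with earlier results of these data known, so the shares set beside their counts are a description and no test.

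**Figure D3:**
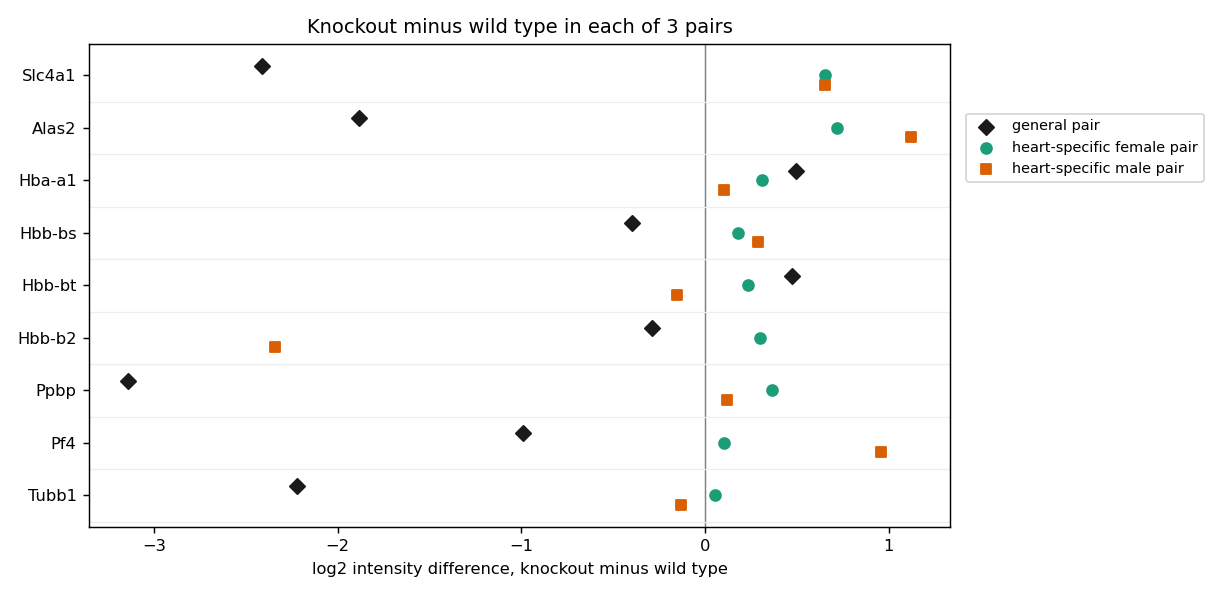
Log2 intensity difference, knockout minus wild type, of the brightest probe of each gene in the general pair (diamonds), female pair (circles) and male pair (squares). In the general pair 7 of 9 genes lie left of 0, down to -3.14 for Ppbp, and in the female pair all 9 lie right of it, with Tubb1 below background on both female arrays.

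Over the 3 pairs the limma test called 0 of 11285 genes (0%), with 303 (2.68%) at an unadjusted p under 0.05, and every one of the 9 genes had an adjusted p of 0.9998. Opposite signs entered these means: Slc4a1 was at -0.37 ± 1.77 (SD, n = 3 pairs) and Ppbp at -0.88 ± 1.96. In the heart-specific line limma again called 0 genes (0%), with 505 (4.47%) at an unadjusted p under 0.05. Alas2 was at 0.92 ± 0.29 (SD, n = 2 pairs) with a limma adjusted p of 0.858, higher in 2 of 2 knockouts, and Slc4a1 at 0.65 ± 0.0013 with 0.975. The small SD of Slc4a1 rests partly on a female wild-type value below background, which makes the female difference a lower bound. A permutation of 3 against 3 arrays cannot give an exact two-sided p below 0.1.

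The difference of the knockout effect between the lines was called by limma for 9 genes (0.0798% of 11285), and 4 of them are Ppbp, Slc4a1, Alas2 and Tubb1; 725 genes (6.42%) had an unadjusted p under 0.05. The general effect minus the heart-specific effect was -3.38 (SE 0.23) for Ppbp and -3.07 (SE 0.22) for Slc4a1, both at a limma adjusted p of 0.0171. It was -2.80 (SE 0.26) for Alas2 at 0.0367 and -2.18 (SE 0.23) for Tubb1 at 0.0497 by the same limma test. Tubb1 was at or below background on 4 of the 6 arrays, so its value rests partly on background. Slc4a1 and Ppbp were below background in the female wild type, so their values and SEs rest partly on it too. Pf4 at -1.52 (limma adjusted p = 0.446), Hbb-bs at -0.63 (0.708), Hba-a1 at 0.29 (0.908), Hbb-bt at 0.44 (0.850) and Hbb-b2 at 0.73 (0.942) were not called. These values are those of the brightest probes. With the mean of its kept probes Hbb-bt was called, at -1.58 (limma adjusted p = 0.0400). The general line is 1 pair, so its spread was assumed to be that of the heart-specific pairs, which left 1 residual degree of freedom. Without the pair as a block, limma called 0 genes, with adjusted p-values of 0.906 for Slc4a1, 0.9996 for Alas2, 0.0924 for Ppbp and 0.216 for Tubb1. Background subtraction also ended the 4 calls (0.743) while the differences grew in size, to -4.76 for Slc4a1, -3.19 for Alas2, -6.15 for Ppbp and -4.41 for Tubb1. Alas2 was further lost when probes had to be above background on all 6 arrays (0.103), and Tubb1 with the mean of its probes (0.145) and with quantile normalization repeated (0.0560). Tested probe by probe, limma called 30 of 17799 probes (0.169%), and among them were 3 of the 10 Hbb-bs and Hbb-bt probes. The dimmest Hbb-bs probe differed by -2.70 (limma adjusted p = 0.0107), the dimmest Hbb-bt probe by -4.17 (0.00669) and the next dimmest Hbb-bt probe by -1.86 (0.0337).

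The remaining 5 called genes were Timp1, an inhibitor of matrix proteases, Fcer1g, the signalling chain of Fc receptors on myeloid cells and platelets, the atrial myosin light chains Myl4 and Myl7, all lower, and Gdpd3, higher. Atrial markers were high in the same heart. All 4 of them, Nppa, Myl4, Myl7 and Sln, were highest in the general wild type and lower by 1 or more in the general knockout. Their summed intensity was 42733 and 19540 in that pair and 12855 to 26170 in the heart-specific hearts. Most of it was Nppa, at 39341 and 18997 in the general pair. Myl7 and Sln were below background in the general knockout, so they were at least 5.08-fold and 3.13-fold lower there. The part of atrial tissue in the differences of the blood genes was not tested.

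The genes whose profile over the 6 arrays was most like each of 5 members were sought among 11284 others, as a description in which a single bright heart weighs heavily. For Slc4a1 the nearest was Trim10, a RING finger protein of red cell precursors (Pearson r = 0.996), followed by Rcor3, Ankrd1, Apol11b and Masp1. Alas2 itself ranked 104 for Slc4a1 (r = 0.93), behind the platelet gene Ppbp at rank 60 (0.94), with Pf4 and Tubb1 each at 0.91. Slc4a1 ranked 63 for Alas2, whose nearest were Coq4 (0.989), Col8a1, Arpc1b, Hes1 and Ccn4. For Hba-a1 the nearest were Zfp87 (0.977), Bmp6, Fgg, Sipa1 and Tnfaip8, with Hbb-bt at rank 48 and Slc4a1 at r = -0.40. For Ppbp the nearest were 2810004N23Rik (0.999), Tnc, Zfp511, Slc39a7 and Ankrd2, and Tubb1 ranked 3 (0.994). For Pf4 the nearest was Slc25a37, the mitochondrial iron importer used by erythroid cells (0.992), followed by Stap1, Ccl8, Pilra and Niban1.

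A wider red cell list was read beside the members. Of 53 wider red cell genes, 45 had a probe and 30 were above background on at least 2 arrays. In the general pair 11 of the 30 were higher and 19 lower with a median of -0.09, in the female pair 19 were higher and 11 lower (0.06), and in the male pair 12 were higher and 18 lower (-0.04). Of the 30, 11 were highest in the general wild type, against 18.7% of all genes, and 0 were lower by 1 or more in the general knockout, against 0.434%. The limma tests called 0 of the 30 over 3 pairs, in the heart-specific line and between lines, where they called 0%, 0% and 0.0798% of all genes. Many genes of this list are active in other cells too, such as the transferrin receptor and haem synthesis enzymes.

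The wider red cell genes with the largest range over arrays were Tfrc, Aqp1, Slc25a37, Car2, Trim10 and Ube2l6. Trim10 was at 212 in the general wild type, 124 in the general knockout, 98 in the female wild type, 116 in the female knockout, 114 in the male wild type and 140 in the male knockout. As for Slc4a1, the general wild type was highest and the male knockout next, and Trim10 was below background in the female wild type, the female knockout and the male wild type. Slc25a37 was at 447, 253, 196, 209, 192 and 310 in that order of arrays, and Ube2l6, an ISG15-conjugating enzyme abundant in late red cell precursors, at 306, 188, 161, 173, 176 and 283. Both were highest in the general wild type and second in the male knockout. Tfrc, the transferrin receptor, ran otherwise, from 1289 in the female wild type to 7083 in the male knockout, with 2819 in the general wild type. Aqp1, a water channel of red cells that heart endothelium also carries, was lowest in the general wild type, at 2807 against 5497 to 10945 elsewhere.

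Several genes of red cell precursors were near background. Gata1 and Epb42 were below background on all 6 arrays, Klf1 was above it on 1, and the embryonic globins Hbb-bh1 and Hbb-y were each above it on 1 array and Hba-x on none. Fech, the enzyme that inserts iron into haem, stayed at 261 to 293 in all hearts.

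Of 40 wider platelet genes, 35 had a probe and 25 were kept. In the general pair 21 of 25 were lower and 4 higher with a median of -0.26, against 46.5% of all genes lower, and 17 of 25 were highest in the general wild type, against 18.7%. Among the lower ones F5 was below background on both general arrays. P2ry1 rose most, from 437 in the general wild type to 839 in its knockout (0.94). Some listed genes were bright in all hearts, such as Tuba8 at 1180 to 2639, and which cells gave their signal was not tested. In the female pair 14 were higher and 11 lower (0.02), and in the male pair 15 and 10 (0.09). The limma tests called 0 of the 25 in each of the 3 comparisons, near the 0%, 0% and 0.0798% of all genes.

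Measured differences of -1 or lower in the general pair were found for 3 platelet genes, Alox12, Gp9 and Gp1bb, but Gp1bb was below background in the knockout and can be called only at least 1.71-fold lower. Alox12, the platelet 12-lipoxygenase, was at 920 in the general wild type, 292 in the general knockout and 216 to 268 in the heart-specific hearts. Gp9, a subunit of the von Willebrand factor receptor, was at 334 and 143 in the general pair and 119 to 129 in the others, and Gp1bb, its partner subunit, at 210 and 102 and then 98 to 123. Plek, a protein kinase C substrate of platelets and leukocytes, was at 305 and 157 and then 138 to 150. Each of these was highest in the general wild type, as were Ppbp and Tubb1. Tuba8 was at 2639 and 1650 in the general pair and Gng11 at 346 and 288.

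Platelet genes that failed the filter included some seen in 1 heart. Of the 10 not kept, 4 were above background in the general wild type alone, 1 in the general knockout alone and 5 on no array. Itga2b, the platelet fibrinogen receptor chain, was at 198 in the general wild type and 108 to 123 elsewhere. Its partner chain Itgb3 was above background in the general knockout alone, at 127 against 116 in the general wild type. The other 3 seen in the general wild type were Gp5 at 224, Gp6 at 131 and Treml1 at 246. Itgb3, Gp5, Gp6, Treml1, F5 and P2ry1 were named after their values were seen.

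**Figure D4:**
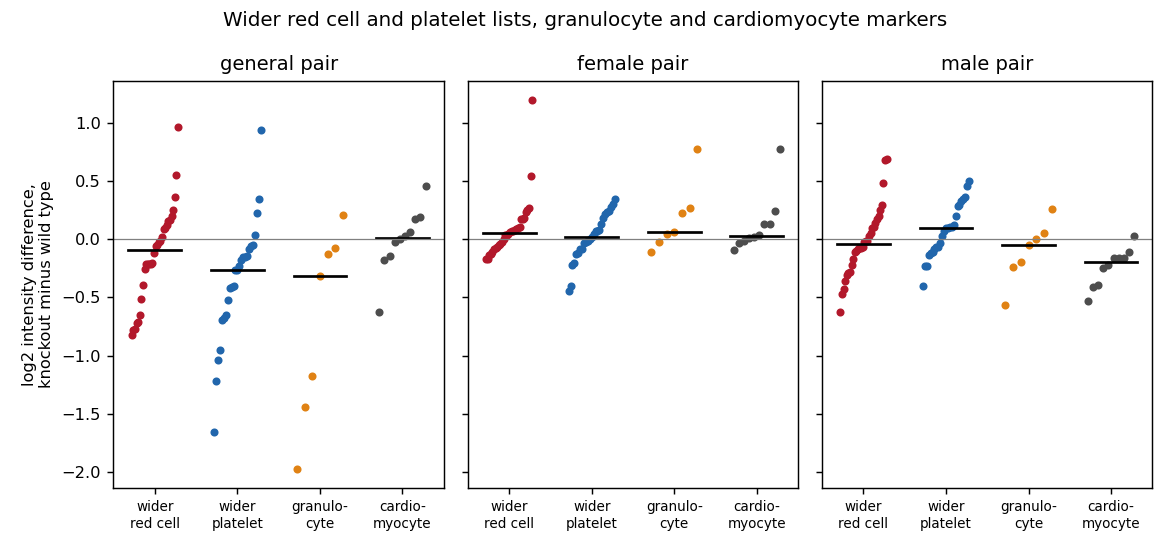
Log2 intensity difference, knockout minus wild type, of each kept gene of 4 lists in the general, female and male pairs, sorted within a list, with the list median as a bar. In the general pair the platelet list has a median of -0.26 and 3 genes at -1 or lower (Gp1bb below background in the knockout), the granulocyte list has 3 such genes, and the red cell list has none.

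Other blood cells were read beside these. Of 15 granulocyte markers 7 were kept, 6 lower and 1 higher in the general knockout, against 46.5% of all genes lower. Apart from S100a8, S100a9 and Lcn2, the kept markers read 101 to 129 in the general pair, near background, which leaves their direction uncertain. Among the lower ones 1 was below background on both general arrays. The 7 kept markers summed to 2239 in the general wild type and to 868 to 1096 elsewhere. S100a8 was at 762 and 337 in the general pair, S100a9 at 420 and 154, and Lcn2, which other cells make too, at 573 and 145. The defining neutrophil granule genes Ngp and Elane were below background on all 6 arrays, and Ltf and Mpo were above it on 1. Of the B cell markers only Cd79b was kept of 4 with a probe (110 to 139), and 0 of 7 T and NK cell markers were. The 9 macrophage markers summed to 7045 in the general wild type, 6285 in the general knockout and 5901 to 8050 in the heart-specific hearts. The limma tests called 0 of the 7 granulocyte genes in any of the 3 comparisons, with Lcn2 nearest at an adjusted p of 0.0653 between lines. The part of these cells in the differences of the members was not tested.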

How the data were processed

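The values are the authors' deposited normalized intensities, made with GenomeStudio per the submitters' processing notes; its version and options were not given in those sources. The sorted columns lay within 2.32% of each other, so they were taken as quantile-normalized with background left in, which compresses folds of dim genes. A second table, whose 12 columns have numbers for names and fit no label, was not used. Probes took their genes from the supplied platform annotation (1 gene for 34885 probes, several for 18, none for 10378), with 34807 matched to GRCm38.p6 for symbols.

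Probes above background on at least 2 of 6 arrays were kept (17799, in 11285 genes), and the brightest stood for its gene. "At least" folds set the dimmer array at its background level where its value was at or below it. log2 values were tested with limma 3.58.1 in R 4.3.3 (lmFit, eBayes) with the pair as a block, adjusted over all 11285 genes by Benjamini-Hochberg at 0.05. The fit over 3 pairs had 2 residual degrees of freedom and a prior of 5.30, and the fit by line had 1 and 5.74. Pairs come from the titles, and the 2 arrays of a pair deviated together from their genotype's mean (r = 0.34, 0.33 and 0.35 over genes for the general, female and male pair). The general pair has no test. Fits were tested on simulated data with the same knockout effect in every pair. Recovery of a true difference between lines was therefore not tested.

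Named by rule were all 9 members with every probe, the 5 genes most correlated with each of 5 members, up to 6 genes of largest range from each wider list with Gata1, Klf1, Itga2b, Gp9, Epb42 and Fech, and up to 3 from each list of other blood cells. Members, lists and tests were chosen with earlier results of these data known. Alternatives covered the dim-probe filter, the probe choice, background subtraction, normalization, the block, the spread estimate and leaving out pairs.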

Additional observations from a re-analysis of the deposited data

Results flagged for a closer look

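The knockout effect in the general pair differed from that in the heart-specific pairs, by the limma test of the difference itself, for 4 of the 9 genes. The general effect minus the heart-specific effect was -3.066 for Slc4a1, -2.803 for Alas2, -3.384 for Ppbp and -2.185 for Tubb1 on the log2 scale. Each was lower in the 1 general knockout. Slc4a1, Alas2 and Ppbp were higher in 2 of 2 heart-specific knockouts. Tubb1 was below background on both female arrays and at least 1.08-fold lower in the male knockout. The general side is 1 knockout and 1 wild-type array, so the differences rest on a pair without a replicate, and all 4 calls were lost without the pair as a block.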

How the results depend on the processing

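Over 3 pairs, 16 genes were called after centring on cardiomyocyte markers, Hbb-b2, Ppbp and Tubb1 among them. Centring moved arrays by -0.14 to 0.18. In the heart-specific line the count of 0 became 1 with no filter, 2 with probe means, 1 probe by probe, 9 with centring and 1 with an intensity trend. Between lines the 9 calls became 21 with no filter, 0 with all 6 arrays above background, 26 with probe means, 30 probe by probe, 0 with background subtracted, 42 with centring, 28 with the trend and 0 with no replicate block. With no replicate block all 4 members lost their call (adjusted limma p from 0.0924 for Ppbp to 0.9996 for Alas2), while the counts over 3 pairs and in the heart-specific line stayed at 0. Background subtraction put the 4 members at 0.743 with larger differences (-4.76 for Slc4a1, -3.19 for Alas2, -6.15 for Ppbp, -4.41 for Tubb1), repeated quantile normalization put Tubb1 at 0.0560, probe means put Tubb1 at 0.145, and the strict filter put Alas2 at 0.103. The general pair's 65 differences became 624 with background subtracted. Signs turned over 3 pairs for Slc4a1 (0.046 with background subtracted), Alas2 (0.051, and 0.024 centred), Hbb-bs (-0.22, dimmest probe), Hbb-bt (-0.13 by probe mean, -0.25 and -0.50 by its dimmest 2) and Tubb1 (0.062, second probe). In the heart-specific line they turned for Tubb1 (0.0035 by probe mean, 0.044 by its second probe, 0.019 centred). Between lines they turned for Hbb-bs (0.051, second probe), Hbb-bt (-1.58 by probe mean, -0.73, -1.86 and -4.17 by its dimmer 3) and Tubb1 (0.053, second probe). By probe mean Hbb-bt gained a call between lines (limma adjusted p = 0.0400). Leaving out 1 pair gave, over 3 pairs, -0.88 to 0.65 for Slc4a1, -0.58 to 0.92 for Alas2, -0.11 to 0.23 for Hbb-bs, -1.32 to 0.0057 for Hbb-b2, -1.51 to 0.24 for Ppbp and -0.44 to 0.53 for Pf4. The highest value came without the general pair, and for Hbb-b2 without the male pair. In the heart-specific line it gave -0.15 to 0.23 for Hbb-bt, -2.34 to 0.30 for Hbb-b2 and -0.13 to 0.054 for Tubb1, and between lines -0.59 to 2.05 for Hbb-b2. The strict filter left out Slc4a1, Ppbp and Tubb1, and the difference between lines has no value without the general pair. The causes were not tested.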
